A study of Mus musculus with 6 samples.

Results

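The genes of the sliding clamp of DNA replication, of its loader and of the enzymes that finish Okazaki fragments were examined for binding of the transcription factor E2F1. The set holds 10 of the 21883 protein-coding genes placed on the assembled mouse chromosomes. Its members are Pcna, Rfc1, Rfc2, Rfc3, Rfc4, Rfc5, Lig1, Fen1, Chtf18 and Dna2. They were listed by gene symbol, with earlier results of these data known. A peak was assigned to a gene when any of its bases lay inside the gene's span on GRCm38 or within 1000 bp of it. Binding was measured by chromatin immunoprecipitation followed by sequencing (ChIP-seq) in NIH/3T3, an established mouse embryonic fibroblast line. The E2F1 group carried a stably integrated doxycycline-inducible E2F1 construct and the control group a doxycycline-inducible empty vector (EV), with 2 libraries each. The growth serum was 10% in both groups, and both spent 48 hours in 0.25% serum to reach a resting state. Doxycycline followed for 12 hours, at 500 ng/ml by the labels, so the control cells also received the drug and kept their own E2F1 gene. The study asked which genes E2F1 controls as cells re-enter the cycle. Whether the integrated lines were clones or pools, and whether replicates were separate cultures, is not given in the sources used here.

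During replication PCNA encircles DNA as a ring and holds the polymerase on its template. Replication factor C, made of a large subunit (Rfc1) and 4 smaller ones (Rfc2 to Rfc5), opens the ring and closes it around DNA at each primer. Because the lagging strand is made in short Okazaki fragments, the ring is loaded again for every fragment, the flap endonuclease FEN1 and the nuclease-helicase DNA2 trim the displaced primer ends, and DNA ligase I (Lig1) seals the nick. Chtf18 replaces the large subunit in an alternative loader linked to sister chromatid cohesion. Genes of this machinery are known as E2F targets that are expressed as cells approach S phase.

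Every one of the 10 genes had a peak in both E2F1 libraries, and none had a peak in either EV library. By the same rule, the first E2F1 library had a peak at 36.9% of all protein-coding genes and the second at 38.2%. For the EV libraries these shares were 0.0366% and 0.407%. A consensus peak, meaning overlapping peaks of both E2F1 libraries, was found at 10 of 10 genes of the set and at 34.4% of all protein-coding genes. With only peaks of a −log10 q-value of 50 or more in both lists, 9 of the 10 genes kept a consensus peak, all but Chtf18, beside 10.7% of all protein-coding genes. The difference in genes with a peak, E2F1 minus EV, was 10 genes, with p = 0.33 in an exact two-sided permutation test over libraries. A design of 2 against 2 cannot go below this p. The counts of genes with a peak were equal within each group, so this p is set by the number of libraries and measures no spread. The libraries of a group may be technical replicates. The EV peak closest to any of the genes lay 775408 bp away, from Lig1 in EV replicate 2.

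Each gene had exactly 1 peak in each E2F1 list, as did 89.7% of all protein-coding genes with a consensus peak. Fold enrichment, the authors' ratio of read pileup to local background at the summit of a peak, ran from 5.19 to 69.5 over the 20 peaks of the set. The median was 23.7 in E2F1 replicate 1 and 23.5 in E2F1 replicate 2, beside 9.85 and 12.7 over all 7006 consensus peaks. In 7 of the 10 genes the peak was in the top 25% by fold of both lists, and 19.3% of all consensus peaks were. Rfc2, Rfc5 and Chtf18 were the exceptions.

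**Figure D1:**
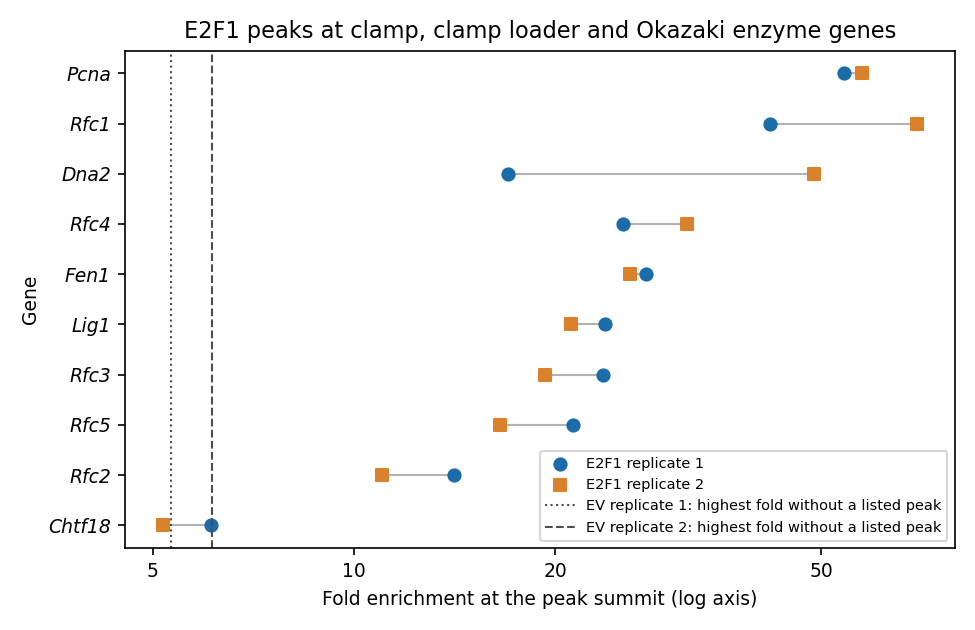
Fold enrichment (horizontal, log axis) at the summit of the peak of each gene in E2F1 replicate 1 (circles) and E2F1 replicate 2 (squares), ordered by mean. Vertical lines give the highest fold a site could have had without a listed peak in EV replicate 1 (dotted, 5.32) and EV replicate 2 (dashed, 6.14), and Chtf18 alone has values under a line.

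A site missing from an EV list is not a site without signal, because the lists stop at a p-value near 1e-10. The genome-wide background recovered from the lists was 2.20 reads in the first EV library, where 17 reads at a summit would have sufficed for listing. It was 1.18 reads in the second, where 13 would have sufficed. A site could therefore reach a fold of 5.32 in the first or 6.14 in the second and still be unlisted, if its local background was no lower than the genome-wide one. In 9 of the 10 genes both E2F1 folds lay above these limits. The median folds of all consensus peaks, 9.85 and 12.7, did so too. Their share above the limits was not computed, so 9 of 10 is not shown to be particular to these genes. The lower of a gene's 2 E2F1 folds was 8.79 times the higher limit at Pcna and 1.79 times at Rfc2. For Chtf18 it was 0.844 times the limit, so a fold as low as that seen with E2F1 could have gone unlisted in EV cells.

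Promoter sequences were compared with the positions of the peaks. RefSeq windows on GRCm38.p6, which run from 250 bases before a start site through 50 bases from it, matched 9 of the 10 genes (not Rfc2), with 12 windows in all. Of these, 11 were overlapped by a consensus peak, as were 22.5% of all 32851 windows. They were searched on both strands for the E2F-type spelling TTCCCGC and its variants, which are TTCGCGC with the middle letter changed, TTGCCGC with the letter before it changed and TTGGCGC with both changes. Windows of 6 genes held at least 1 match, namely Rfc1, Rfc3, Rfc4, Lig1, Fen1 and Chtf18. By window, 7 of the 11 with a peak held one (63.6%), against 23.1% of all windows with a consensus peak, 5.66% of windows without one and 9.57% of all windows. CpG dinucleotides numbered 24 at the median in the 11 windows, 26 in all windows with a peak and 5 in windows without, and the part of CpG content in the shares was not tested. A match is a description of the letters, and whether E2F1 sits on them was not tested. The windows below carry the highest mean fold (Pcna), the lowest (Chtf18) and the 5 other genes with a match, each read in the direction of transcription, with matches in capitals.

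Pcna: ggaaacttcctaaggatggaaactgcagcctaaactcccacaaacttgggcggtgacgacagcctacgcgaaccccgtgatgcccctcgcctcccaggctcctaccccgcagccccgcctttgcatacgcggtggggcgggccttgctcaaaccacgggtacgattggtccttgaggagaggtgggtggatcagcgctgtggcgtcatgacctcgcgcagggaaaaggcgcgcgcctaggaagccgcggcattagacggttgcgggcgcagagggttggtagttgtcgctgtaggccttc
Rfc1: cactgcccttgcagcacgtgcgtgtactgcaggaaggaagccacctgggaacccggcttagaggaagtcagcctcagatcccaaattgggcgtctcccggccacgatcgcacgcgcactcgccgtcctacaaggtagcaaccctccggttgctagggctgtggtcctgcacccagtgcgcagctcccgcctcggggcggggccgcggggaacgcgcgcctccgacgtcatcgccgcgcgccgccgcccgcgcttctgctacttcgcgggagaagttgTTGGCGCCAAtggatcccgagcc
Rfc3: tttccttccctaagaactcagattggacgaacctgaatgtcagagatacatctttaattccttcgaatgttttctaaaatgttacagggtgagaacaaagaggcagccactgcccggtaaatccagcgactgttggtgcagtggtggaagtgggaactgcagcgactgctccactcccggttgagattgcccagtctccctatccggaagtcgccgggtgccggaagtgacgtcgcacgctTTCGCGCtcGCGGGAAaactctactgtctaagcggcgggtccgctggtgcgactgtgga
Rfc4: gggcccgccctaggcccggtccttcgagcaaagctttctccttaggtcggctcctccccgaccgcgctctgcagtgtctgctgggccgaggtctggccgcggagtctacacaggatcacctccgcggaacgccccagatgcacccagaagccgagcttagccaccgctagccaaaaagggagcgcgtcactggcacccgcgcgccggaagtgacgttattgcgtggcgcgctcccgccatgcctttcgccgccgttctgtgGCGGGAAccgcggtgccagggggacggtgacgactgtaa
Lig1: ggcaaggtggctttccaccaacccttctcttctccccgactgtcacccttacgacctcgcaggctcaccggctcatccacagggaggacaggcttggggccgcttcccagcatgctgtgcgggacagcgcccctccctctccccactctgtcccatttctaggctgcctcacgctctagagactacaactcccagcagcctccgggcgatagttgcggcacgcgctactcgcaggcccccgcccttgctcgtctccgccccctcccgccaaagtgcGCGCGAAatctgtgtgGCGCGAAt
Fen1: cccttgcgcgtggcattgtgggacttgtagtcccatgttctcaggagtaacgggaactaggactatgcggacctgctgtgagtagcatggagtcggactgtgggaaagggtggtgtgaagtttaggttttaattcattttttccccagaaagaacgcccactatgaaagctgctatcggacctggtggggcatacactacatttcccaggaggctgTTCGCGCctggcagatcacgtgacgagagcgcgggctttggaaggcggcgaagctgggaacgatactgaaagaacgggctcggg
Chtf18: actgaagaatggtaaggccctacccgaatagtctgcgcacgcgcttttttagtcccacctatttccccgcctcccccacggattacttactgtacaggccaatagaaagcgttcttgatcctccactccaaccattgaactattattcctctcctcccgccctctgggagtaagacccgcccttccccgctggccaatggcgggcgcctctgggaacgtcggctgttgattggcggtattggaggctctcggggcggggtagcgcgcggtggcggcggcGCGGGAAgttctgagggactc

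These windows are chr2:132253131-132253430 (minus strand) for Pcna, chr5:65335590-65335889 (minus) for Rfc1, chr5:151651159-151651458 (minus) for Rfc3 and chr16:23127681-23127980 (minus) for Rfc4. The others are chr7:13278576-13278875 (plus) for Lig1, chr19:10203872-10204171 (minus) for Fen1 and chr17:25727366-25727665 (minus) for Chtf18. In Rfc1 a match and its reverse complement overlap in 1 run of capitals, and in Rfc3 a match begins 9 bases before the start site and another begins on it. The longer spelling with a further T in front was held by windows of Rfc3 and Lig1 only. These were 2 of the 11 windows with a peak (18.2%), against 5.80% of all windows with a consensus peak and 2.26% of all windows. Pcna, Rfc5 and Dna2 had no match of 7 letters. The summits of Pcna, Rfc3 and Lig1 lay outside the printed window in both libraries, farther into the gene. Those of Rfc1 and Chtf18 did so in replicate 1 only. The count depends on the spelling. Without the first T, the remaining 6 letters were held by 10 of the 11 windows with a peak (90.9%), against 76.3% of all windows with a consensus peak and 36.3% of all windows. These shorter matches included 2 at Pcna and 5 at Dna2, where the nearest lay 8 bases from the summit in replicate 1 and 3 in replicate 2, and left Rfc5 alone without one. At Fen1 the match lay 5 bases from the summit in both libraries, and at Rfc4 it lay 22 and 25 bases away. At Lig1 the nearer of the matches was 124 bases from the summit in replicate 1 and 110 in replicate 2. The nearest match was 129 and 113 bases away at Rfc3, and 82 and 25 bases away at Rfc1.

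Pcna had the strongest peak of the set by mean fold, 55.8 ± 2.46 (SD, n = 2). The peak spanned chr2:132251124-132253654 in E2F1 replicate 1, with a fold of 54.0 and rank 21 of 7836. In E2F1 replicate 2 it spanned chr2:132251941-132253599, with a fold of 57.5 and rank 120 of 8027. The folds were thus nearly equal in the libraries. At 2531 and 1659 bp these were also the widest peaks of the set, 2.70 and 2.04 times the median width of their lists. The summits lay 380 and 394 bp inside the gene from its start site, the largest distance among the 9 genes with a window. The peak also overlapped the span of Cds2, which begins 157 bp beyond that of Pcna, so the peak cannot be given to either gene alone.

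Rfc1, the large subunit of the loader, had a peak at chr5:65334713-65335975 in E2F1 replicate 1, with a fold of 41.9 and rank 70. In E2F1 replicate 2 the peak at chr5:65335081-65336030 had a fold of 69.5 and rank 55, the highest fold of the set in that list. The mean was 55.7 ± 19.5 (SD, n = 2), so it is not separable from that of Pcna. By the gene's RefSeq span the summits lay 3093 and 2983 bp from the nearest end. By the annotated start site of the printed window they lay only 115 and 5 bp downstream.

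The 4 small subunits, which with Rfc1 form the ring-opening complex, differed among themselves. Rfc4 was the highest of them by fold, with 25.3 at chr16:23126840-23128344 in E2F1 replicate 1 and 31.5 at chr16:23127363-23128243 in E2F1 replicate 2. Its summits were the closest to a start site among the small subunits with a window, 8 and 11 bp upstream. Rfc3 followed, with folds of 23.5 at chr5:151650493-151651425 and 19.3 at chr5:151650753-151651375. For Rfc5 the folds were 21.2 at chr5:117388210-117389348 and 16.5 at chr5:117388533-117389395. Rfc2 was the lowest, with folds of 14.1 at chr5:134582685-134583657 and 11.0 at chr5:134582670-134583148. Its ranks were 1948 of 7836 and 4137 of 8027, the latter below the middle of the list.

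In both libraries the order of the loader subunits by fold was Rfc1, Rfc4, Rfc3, Rfc5 and Rfc2. The ranges over libraries did not overlap between Rfc1 and Rfc4 (41.9 to 69.5 against 25.3 to 31.5) or between Rfc4 and Rfc3 (19.3 to 23.5). Those of Rfc3 and Rfc5 (16.5 to 21.2) did overlap, although Rfc3 was the higher of the pair within each library. Rfc2 (11.0 to 14.1) lay below Rfc5 in both. By reads at the summit the order was another. In replicate 1 Rfc4 had 71 reads, fewer than Rfc3 (77) and Rfc5 (94), with overlapping exact Poisson 95% intervals. The local backgrounds there were 1.85, 2.31 and 3.47 reads. In replicate 2 Rfc4 had 128 reads, more than Rfc5 (86) and Rfc3 (78).

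Chtf18, the alternative large subunit, had the weakest peak of the set. Its fold was 6.11 at chr17:25727066-25727447 in E2F1 replicate 1, rank 6216 of 7836, and 5.19 at chr17:25727185-25727494 in E2F1 replicate 2, rank 7564 of 8027. The mean was 5.65 ± 0.655 (SD, n = 2). The peaks were 382 and 310 bp wide, 0.407 and 0.381 times the median of their lists. Only 32 and 31 reads stood at the summits. The summits lay 147 and 46 bp downstream of the start site, and 1 match in the window lay 115 and 14 bases from them.

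Among the Okazaki fragment enzymes Fen1 was the most even between libraries. Its peak had a fold of 27.4 at chr19:10203217-10204529 in E2F1 replicate 1 and 25.9 at chr19:10203239-10204460 in E2F1 replicate 2, and the summit fell on the same base, 26 bp upstream of a start site. The spans of Fen1 and Tmem258 overlap by 192 bp, and the peak covered the overlap. Lig1 had folds of 23.8 at chr7:13278147-13279778 and 21.1 at chr7:13278128-13279431. Its summits were 1820 and 1806 bp inside the gene by the RefSeq span but 169 and 155 bp downstream of the printed start site. The first of the 3 Lig1 windows, at the outer end of the span, was the single window of the set without a peak. The span of Zswim9 reaches 1547 bp into Lig1, and its end was 274 and 260 bp from the summits.

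Dna2 varied most between libraries. The fold was 17.0 at chr10:62946561-62948164 in E2F1 replicate 1, rank 1317, and 48.8 at chr10:62946575-62947561 in E2F1 replicate 2, rank 212. The mean was 32.9 ± 22.5 (SD, n = 2), an SD of 68.3% of the mean. It is thus not separable from Fen1 or Lig1, being lower than both in replicate 1 and higher in replicate 2. The summits nevertheless lay 11 bp apart, 22 and 33 bp upstream of the start site.

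**Figure D2:**
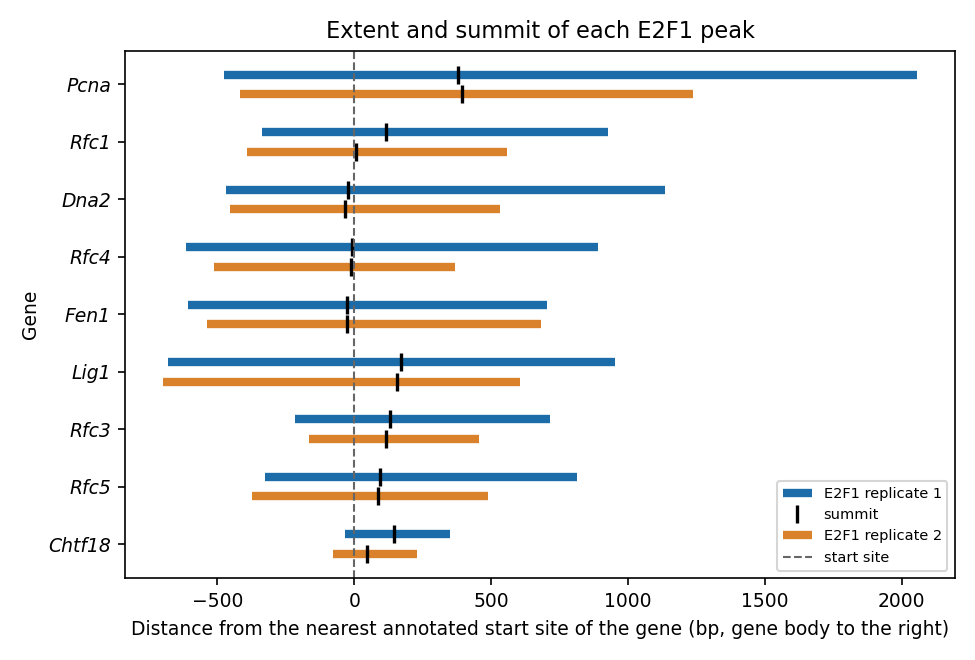
Extent of the peak (bars) and its summit (black ticks) in bp from the nearest annotated start site of each gene, with the gene body to the right, for E2F1 replicate 1 (blue) and E2F1 replicate 2 (orange) in the 9 genes with a promoter window. Every bar covers the start site, and the blue bar reaches farther into the gene in all 9.

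Summits were close to start sites. They lay within 200 bp of one in 8 of 9 genes in both libraries, all but Pcna, with a median distance of 115 bp in E2F1 replicate 1 and 46 bp in E2F1 replicate 2. Over the 6816 consensus peaks on chromosomes with windows the summit in replicate 1 was within 200 bp of a start site of any gene in 49.9%, with a median of 201 bp. These 6816 peaks were not limited to peaks assigned to a gene, as those of the set were. Between the libraries the summits of a gene of the set lay 0 to 110 bp apart, with a median of 14 bp, against 55 bp over all consensus peaks.

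Peaks were wider in E2F1 replicate 1 than in replicate 2 in 10 of 10 genes, and in 64.6% of all consensus peaks. In 8 of the 9 genes with a window the excess was larger on the side of the gene body, and at Fen1 it was larger upstream (69 bp against 22 bp downstream). In 9 of 9 genes the peak reached farther downstream of the start site in replicate 1, and the median gain was 347 bp. In 5 of 9 it reached farther upstream, and the median over all 9 genes, losses included, was a gain of 14 bp. Over 4604 consensus peaks that cover a start site in both lists, 69.1% reached farther downstream in replicate 1, with a median gain of 80 bp, and 48.7% farther upstream, with a median of 0 bp, both medians again over all of these peaks. Pcna had the largest downstream gain, from 1239 to 2056 bp, and Fen1 the smallest, from 682 to 704 bp. What sets the difference in extent was not tested.

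**Figure D3:**
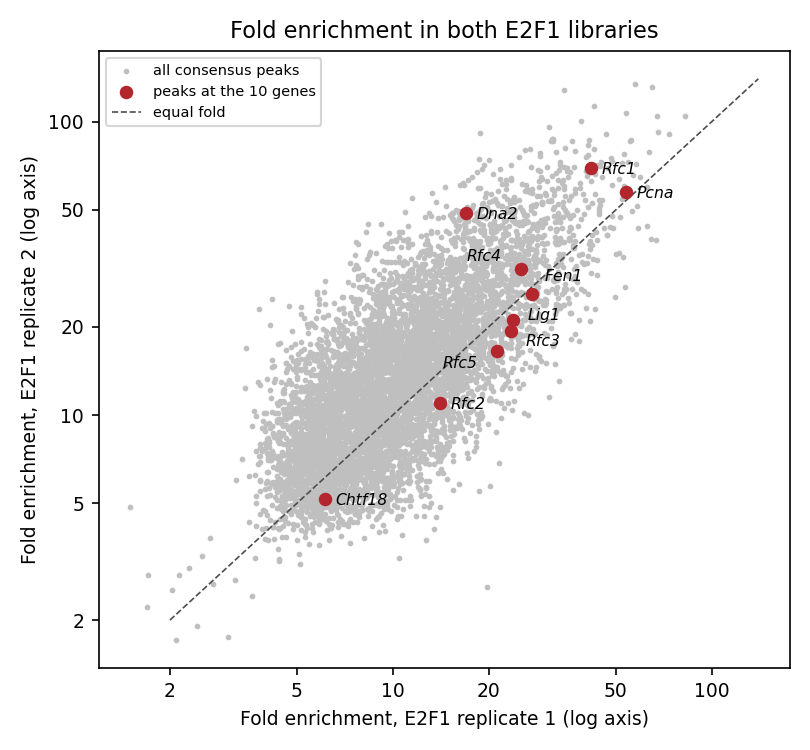
Fold enrichment in E2F1 replicate 1 (horizontal) against E2F1 replicate 2 (vertical), both on log axes, for the 7006 consensus peaks (grey) and those at the 10 genes (red), with the line of equal fold. Rfc1, Rfc4, Dna2 and Pcna lie above the line and the other 6 genes below it.

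Fold ratios between the libraries, replicate 2 over replicate 1, had a median log2 value of -0.12 over the 10 genes, against 0.34 over all consensus peaks (lower quartile -0.09, upper quartile 0.79). The fold was higher in replicate 2 in 4 genes and lower in 6. In 8 genes the folds differed by less than 1.5 times, with Rfc1 (1.66 times) and Dna2 (2.87 times) as exceptions. The share of all consensus peaks within 1.5 times was not counted, but their median difference also lay within it. The 8 of 10 is therefore not shown to be unusual. The median absolute log2 ratio of fold was 0.30 over the 10 genes and 0.48 over all consensus peaks. For reads at the summit, scaled by the genome-wide background, it was 0.32 and 0.27, so by reads the genes were not the more even. Across the 10 genes Spearman's rho between libraries was 0.79 for fold, and 0.70 over all consensus peaks. These are correlations across sites, which share their libraries and are not independent replicates.

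Fold divides the reads at a summit by the local background, and both parts were recovered from the deposited values. Genome-wide backgrounds were alike in the E2F1 libraries, 1.85 and 1.86 reads. At Dna2 the pileup was 121 reads (exact Poisson 95% interval 100.4 to 144.6) in replicate 1 and 180 (154.7 to 208.3) in replicate 2, a ratio of 1.49. The local background went the other way, from 6.17 reads, the highest of the set, to 2.71. Most of the 2.87-fold difference at Dna2 was thus in the divisor. At Rfc1 the pileups were 154 (130.6 to 180.3) and 230 (201.2 to 261.7), with backgrounds of 2.70 and 2.32.

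At Rfc4 the pileup rose more than the fold did. It was 71 reads (55.5 to 89.6) in replicate 1, at a background of 1.85, and 128 (106.8 to 152.2) in replicate 2, at 3.10. Pcna had 178 (152.8 to 206.2) and 236 (206.8 to 268.1) reads, the most of the set in both libraries. For the other 6 genes the intervals of the libraries overlapped, from Chtf18 with 32 and 31 reads to Fen1 with 132 and 142. By pileup, Spearman's rho was 0.85 across the 10 genes and 0.87 over all consensus peaks. The intervals cover counting error only.

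**Figure D4:**
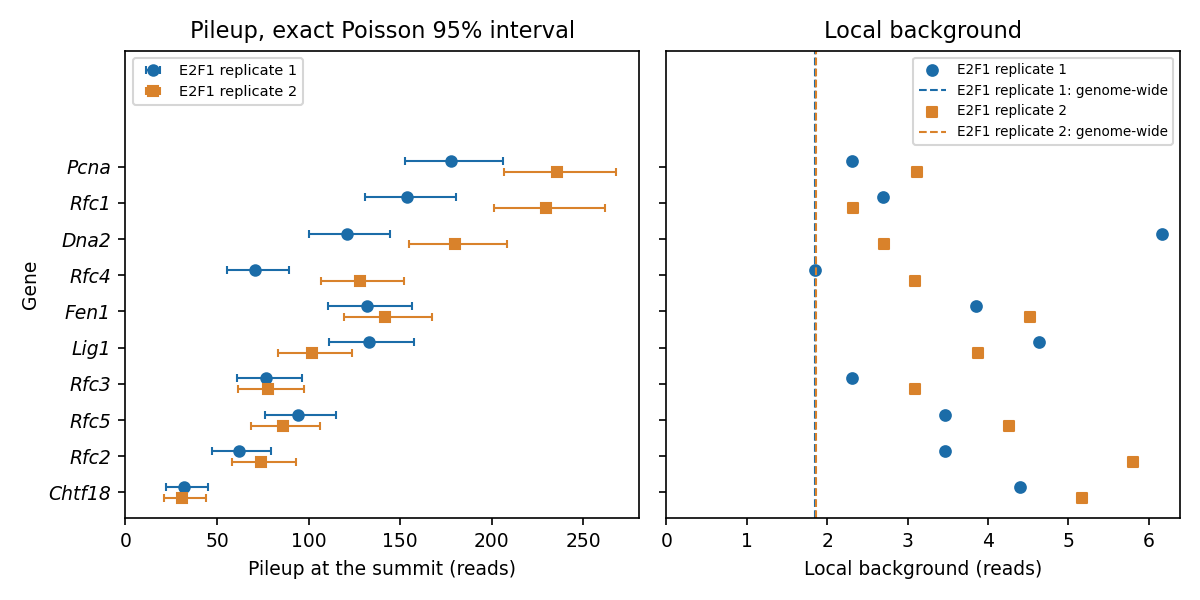
Left, reads at the summit with exact Poisson 95% intervals (bars), and right, local background in reads, by gene for E2F1 replicate 1 (circles) and E2F1 replicate 2 (squares). Dashed lines give the genome-wide backgrounds of 1.85 and 1.86 reads; at Dna2 the background is 6.17 in replicate 1 and 2.71 in replicate 2.

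Neighbouring genes limit what a peak can be assigned to. A peak at 5 of the 10 genes also lay within 1000 bp of another protein-coding gene: Cds2 at Pcna, Zswim9 at Lig1, Tmem258 at Fen1, Rpusd1 at Chtf18 and Slc25a16 at Dna2. The peak at Rfc5 also overlapped the long non-coding RNA gene Gm15728, whose span begins 98 bp beyond that of Rfc5. Rfc1, Rfc2, Rfc3 and Rfc4 had no other gene so close to their peaks. The share of all genes with a consensus peak that have such a neighbour was not counted. By boundaries of spans, the summit was nearer to the neighbour at Lig1 and at Fen1 (255 bp from Tmem258 against 446 bp from Fen1) and nearer to the named gene at the other 4. By annotated start sites the summits lay 26 bp from one of Fen1 and 169 and 155 bp from one of Lig1. Start sites of the neighbours were not measured.

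Other genes of the replication fork were read by the same rule. In 6 further lists 45 of 48 genes had a consensus peak, the exceptions being Hus1b, Pold4 and Shprh, and Shprh had a peak in replicate 2 alone (fold 9.88). The replicative polymerases and primase, which extend from the clamp or prime for it, had consensus peaks at 11 of 12 genes. Their median folds were 27.6 and 28.6 in replicates 1 and 2, from Pole3 (mean 9.98) to Pole4 (46.0). All 6 MCM genes, the helicase that opens the fork, had one, with median folds of 21.7 and 18.3, from Mcm5 (9.27) to Mcm4 (28.6).

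Alternative clamp loader subunits had consensus peaks at 4 of 4 genes, with median folds of 13.5 and 16.3, from Rad17 (mean 12.4) to Atad5 (19.5). The checkpoint clamp, a ring related to PCNA, had them at 4 of 5 genes, with median folds of 7.42 and 13.0, from Rad1 (8.22) to Rad9b (19.5). Other Okazaki fragment and ligation enzymes had them at 10 of 10 genes, with medians of 13.7 and 13.0, from Rnaseh2c (3.96) to Rnaseh2b (45.9). PCNA partners and modifiers had them at 10 of 11, with medians of 22.8 and 29.9, from Hltf (8.60) to Usp1 (59.5), whose product removes ubiquitin from PCNA. Chaf1a was the only gene of these lists with an EV peak, in both EV libraries. Medians of all protein-coding genes with a consensus peak were 10.2 and 13.2. These lists were not tested against each other, and their ranges overlap that of the clamp, loader and Okazaki genes.

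**Figure D5:**
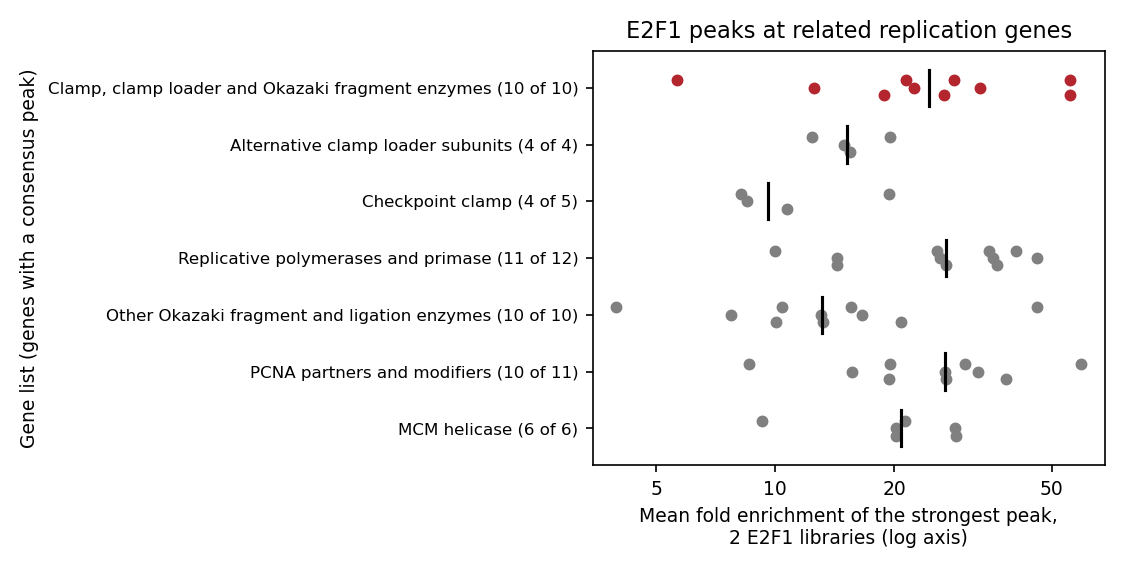
Mean fold enrichment of the strongest peak over the 2 E2F1 libraries (log axis) for each gene with a consensus peak, by list, with the list's median as a black bar; the clamp, loader and Okazaki genes are in red. Counts beside each list give genes with a consensus peak of all its genes, 45 of 48 in the grey lists together.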

How the data were processed

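E2F1 ChIP-seq was analysed in 2 E2F1 and 2 EV libraries of NIH/3T3 cells, each with its own deposited peak list. The 2 EV input samples had no file used here. The titles of the samples give the group and the replicate number. FastQC, Trimmomatic, Bowtie2, MACS2 and ChIPseeker and the build mm10 (GRCm38) are named in the submitters' processing notes. Versions, the antibody and the control of each list are not given in the sources used here. Doxycycline was used at 500 ng/ml per the labels, while the names of the deposited lists carry the number 200 beside it, without a unit.

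Each deposited list gives for a peak its fold ratio, −log10 p, −log10 q and a score. The deposited score is −log10 q times 10 without its decimals, except in 5 and 18 peaks of the E2F1 lists. The E2F1 lists held 7836 and 8027 peaks and the EV lists 70 and 358. In this order, the smallest −log10 p-values were 10.0001, 10.0187, 10.0148 and 10.0046, so weaker sites are missing. These values are the authors' and were ranked only inside their own list.

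Whole pileups and backgrounds were solved from fold (pileup plus 1 over background plus 1) and the Poisson upper tail. A solution within 5% of the step between pileups was found for 99.99%, 99.98%, 95.7% and 99.7% of peaks. The solver and the overlap code were tested on simulated data. The lowest background was taken as genome-wide, the only measure of depth used here, and limits on unlisted folds assume a local background at or above it. Gene spans and promoter windows came from RefSeq (GRCm38.p6). Python 3.11.15, pandas 2.3.3 and scipy 1.17.1 were used. The 10 genes, the other gene lists and the motif were chosen with earlier results of these data known. All 10 genes are named, and of other lists the highest, the lowest, those without a consensus peak and those with an EV peak.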

Additional observations from a re-analysis of the deposited data

How the results depend on the processing

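Of 50 alternatives computed over 5 main results, 41 were counted as keeping the result. Falls from 10 to 9 genes were among them. So were the median fold percentiles of the single lists, beside an SD of 7.10 between replicates. Dropping an EV list could not change the difference of 10 genes, since neither EV list had a peak at them. The 41 is therefore no measure of how robust the results are. The set kept 10 of 10 consensus peaks inside the span, within 500 and 2500 bp, by summit position and in each E2F1 list alone. It kept 9 with a score at or above the list median or a −log10 q-value of 50 (without Chtf18) and with a reciprocal overlap of 50% (without Rfc2). The share of all protein-coding genes, 34.4%, moved by more than its Wilson 95% interval of 33.8% to 35.1%. It was 10.7% at a −log10 q-value of 50, 17.1% at the list median score, 18.1% over all genes, 30.3% with summits within 200 bp, 31.9% with reciprocal overlap, 33.4% inside the span and 35.5% within 2500 bp. Without 1 of the E2F1 replicates it was 36.9% to 38.2%. The median fold percentile of the set, 88.3, ran from 82.8 to 92.8 in the single lists.

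With the replicate number as a block, the difference was again 10 genes, and the exact sign-flip p was 0.5, the smallest 2 pairs can give. Counts that are equal within each group cannot show whether the numbers pair the libraries. The missing weak sites and the number of libraries limit every statement on EV cells, above all at Chtf18.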

Other observations

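Other promoter letters were counted in the same windows, as values without a test. The ETS-type letters CCGGAAG, on either strand, were present at Rfc3, Rfc4 and Rfc5. That is 3 of the 11 windows of the set with a peak (27.3%). The share was 20.2% of all windows with a consensus peak and 8.86% of all windows. The CRE-type letters TGACGT were present at Rfc1, Rfc3 and Rfc4, again 3 of the 11 windows (27.3%). They were in 13.4% of all windows with a peak and 7.51% of all windows. Rfc3 and Rfc4 held both. A CCAAT box was found at Pcna, Rfc1, Rfc3 and Chtf18, in 4 of the 11 windows (36.4%), and the Chtf18 window held 4. The box was in 37.4% of all windows and 36.2% of those with a peak. The GC box GGGCGG was found at Pcna, Rfc1, Rfc4, Lig1 and Chtf18. It was in 6 of the 11 windows of the set with a peak (54.5%), below the 76.4% of all windows with a peak, and in 35.7% of all windows.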
